A study of Mus musculus with 4 samples.

Results

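The genes for collagen chains were examined in 1 pool of RNA from mouse molar teeth. They were all genes that a probe set of the array names alone and whose symbol has the form of a collagen type number and an alpha chain number, such as Col1a1. The rule found 42 of 18194 named genes, read by 82 of 34958 probe sets that name 1 gene, and used no measured value. The genes were grouped by the structure of their protein into 11 fibrillar genes, 9 genes of network-forming collagens, 9 genes of fibril-associated collagens (FACIT) and 13 others. They stand for 26 collagen types.

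Molars were taken by hand from 60 Swiss Webster pups of both sexes between 1 and 10 days after birth and were pooled and ground before RNA extraction, so the pool averages over ages, sexes and all cells attached to the teeth. Biotin-labelled RNA was hybridised to 4 Affymetrix Mouse Genome 430 2.0 arrays, which carry sets of short probes near the 3′ end of transcripts. The 4 arrays form 1 group, and every SD is technical (n = 4). The control tissues named in the study's design are not analysed here, so no tissue was compared with another. In a whole-tissue pool, a low signal from few expressing cells and from little RNA per cell cannot be told apart.

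Collagens are the fibrous proteins of the extracellular matrix, and each molecule is a rope of intertwined alpha chains whose identity sets the collagen type. Fibrillar collagens polymerise into the banded fibrils that carry mineral in dentin and bone. Network-forming collagens make sheets such as those of basement membranes, FACIT collagens decorate the surface of fibrils, and the remaining types form microfibrils, anchoring fibrils and cell-surface proteins. In the tooth, odontoblasts secrete a matrix built mainly of type I collagen, while the epithelium that makes enamel starts out on a basement membrane.

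The signal of a probe set was compared with a background threshold, the 95th percentile of 86 probe sets for olfactory, vomeronasal and taste receptor genes on the same array. This threshold lay between 996 and 1295 signal units over the 4 arrays. All 7 ameloblast markers and all 5 measured odontoblast and osteoblast markers exceeded the threshold on every array, beside 51.6% of all genes. So did all 5 endothelium markers and the 2 measured Schwann cell markers, so these counts alone do not identify the tissue. All 5 oral epithelium markers and all 4 skeletal muscle markers did so as well, with summed signals of 278330 to 320488 and 45021 to 52957 units per array, and their part in the collagen signals was not tested. The brightest collagen genes were higher on array 4. Without that array, the counts of collagen genes and of each class given below were the same. The share of all genes above background was then 54.1%. Leaving out an array can only add calls, so no gene could lose its call this way. Probe sets differ in how well they bind their target, so each signal is read against the threshold and not as an amount of mRNA relative to another gene.

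Most collagen genes were above background, and every fibrillar gene was, by the rule that 1 passing probe set is enough. Of the 42 collagen genes, 34 (81.0%) had a probe set above the threshold on all 4 arrays, beside 51.6% of all genes. The count was 11 of 11 for fibrillar genes, 6 of 9 for network genes, 6 of 9 for FACIT genes and 11 of 13 for the others. The 8 genes not above background were Col4a3, Col4a4, Col6a4, Col6a5, Col9a1, Col10a1, Col19a1 and Col20a1. A one-sided limma test of signal over threshold, adjusted by Benjamini-Hochberg over all probe sets, called 34 collagen genes too, beside 50.9% of all genes. The call of no collagen gene differed between it and the all-array rule, though that of a single probe set could. No class was tested against another.

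**Figure D1:**
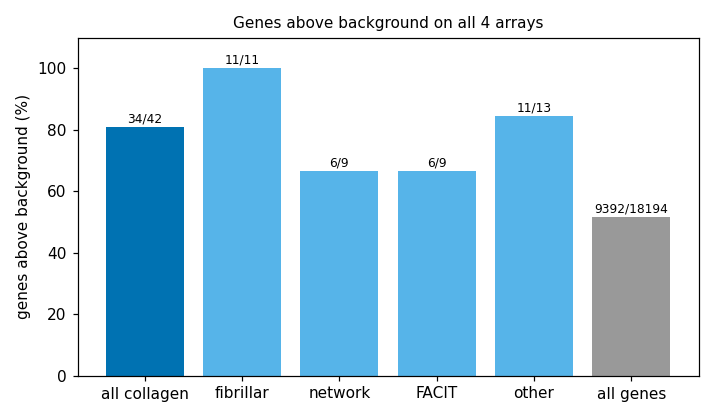
Percentage of genes above background on all 4 arrays (vertical axis) for all collagen genes, the 4 structural classes and all genes named on the array, with counts over the bars. All 11 fibrillar genes were above background, against 51.6% of all genes.

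Collagen genes were also bright. The median over genes of the mean log2 signal was 12.37 for collagen genes and 10.69 for all genes. By class it was 14.93 for fibrillar, 11.50 for network, 12.23 for FACIT and 13.12 for other genes. On every array 15 collagen genes (35.7%) exceeded 10 times the threshold, beside 8.29% of all genes. They comprised 8 fibrillar genes, 2 network genes, 1 FACIT gene and 4 others.

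**Figure D2:**
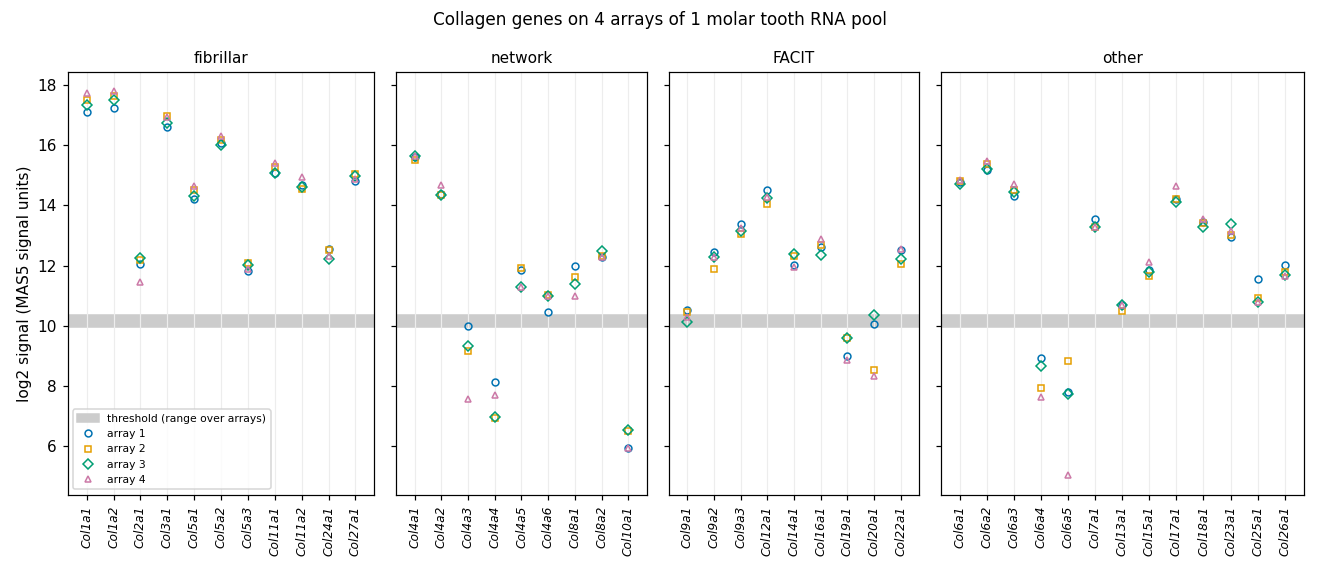
Log2 signal (vertical axis, MAS5 signal units) of each collagen gene on arrays 1 to 4 (symbols), by structural class, with the range of the background threshold over arrays in grey. Fibrillar genes all lie above the band, while Col4a3, Col4a4, Col10a1, Col19a1, Col6a4 and Col6a5 lie mostly or wholly below it.

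The type I genes encode the chains of the main fibril of dentin and bone. Col1a1, for the alpha 1 chain, had signals of 142675, 187189, 167789 and 221490 units on arrays 1 to 4. Col1a2, for the alpha 2 chain, had 156681, 207344, 188216 and 228766 units. Both were lowest on array 1 and highest on array 4, and the ratio of signal to the threshold of the same array was at least 129.6 for Col1a1 and 145 for Col1a2 (limma adjusted p = 1.72e-15 each). Col3a1 encodes type III collagen, which joins type I in the fibrils of soft connective tissue such as the pulp. Its signals were 100008, 128474, 110853 and 125330 units, at least 85.6 times the threshold.

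The regulatory fibrillar collagens were high as well. Type V collagen starts type I fibrils and sets their diameter. Its gene Col5a1 had signals of 19087, 23724, 20210 and 25856 units, and Col5a2 had 68841, 74202, 66407 and 81222 units. Col5a3, a chain known from fewer tissues, had 3595, 4363, 4136 and 3786 units, between 2.99 and 3.98 times the threshold. All type V chains were therefore above background, with Col5a3 nearest to the threshold.

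Type XI collagen, best known as the nucleator of cartilage fibrils, was far above background while its cartilage partner was nearer to it. Col11a1 had 34911, 39567, 34577 and 43148 units, and Col11a2 had 26441, 24108, 24751 and 31422 units, with lowest ratios to the threshold of 26.7 and 19.1. Col2a1, the main collagen gene of cartilage, had 4245, 4609, 4828 and 2790 units and was lowest on array 4, at 2.20 times the threshold (limma adjusted p = 2.8e-08). Of 10 measured cartilage markers, 2 were above background, Sox9 at 5694 ± 850.3 units and Hapln1 at 3477 ± 522 units. Aggrecan (Acan), at 1238 ± 150.3 units, and Chad, at 194 ± 101 units, were not, and the summed signal of the list ranged from 12943 to 14772 units over the arrays.

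The remaining fibrillar genes are minor collagens known from developing bone and cartilage. Col27a1 had 29157, 33935, 32220 and 30066 units, and its array signals spread little (SD 0.10 on the log2 scale). Col24a1, studied as a bone collagen, averaged 5444 ± 625 units and was at least 3.65 times the threshold.

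The network collagens split by chain pair. Type IV collagen is the sheet-forming protein of basement membranes, and its chains are encoded by gene pairs that lie side by side. Col4a1 and Col4a2 encode the chains found in nearly all basement membranes. Col4a1 had 49692, 46594, 50973 and 51678 units and Col4a2 had 21453, 20795, 20820 and 26305 units, so both stayed above 10 times the threshold. Col4a1 hardly varied between arrays (SD 0.07 on the log2 scale).

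The chains of the X-linked pair were nearer to the threshold. Col4a5 had 3664, 3884, 2523 and 2529 units, at least 1.95 times the threshold. The second Col4a5 probe set also passed on all arrays, but only at 1.02 to 1.45 times the threshold, and limma did not call it (adjusted p = 0.146). Col4a6, which joins alpha 5 in some epithelial and smooth muscle basement membranes, had 1406, 2091, 2035 and 2002 units and was lowest on array 1, with a limma adjusted p of 0.00121. Its other probe set averaged 291 ± 164 units and exceeded the threshold on 0 arrays, so the call of Col4a6 rests on 1 of 2 probe sets.

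The last pair was not above background. Col4a3 and Col4a4 encode chains best known from the kidney filter, inner ear and eye. Col4a3 had 1025, 565, 633 and 186 units and passed the threshold on array 1 alone, while Col4a4 had 276, 122, 125 and 209 units and passed on none. None of the 5 probe sets of these genes was above background. Of 3 measured podocyte and lens markers, Podxl, which endothelium also expresses, was above background at 1928 ± 629.9 units, and Nphs1, at 806 ± 242 units, and Cryaa, at 169 ± 44.4 units, were not.

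Promoter windows of 300 bases, 250 before and 50 after the annotated start, were available from RefSeq (GRCm38.p6) for 33 of the 42 genes, as 36 windows. They are shown for the type IV genes because the calls follow the chain pairs, and for Col1a2 as a type I gene with a signal far above the threshold. The Col4a1 window (chr8:11312777-11313076, minus strand) and the Col4a2 window (chr8:11312555-11312854, plus strand) overlap by 78 bases, and the annotated starts lie 21 bases apart. The Col4a1 start has the higher coordinate, so the annotated genes overlap at their 5′ ends and no gap lies between the starts. The shared bases are in capitals in both, each sequence written 5′ to 3′ in the direction of its gene.
Col4a1: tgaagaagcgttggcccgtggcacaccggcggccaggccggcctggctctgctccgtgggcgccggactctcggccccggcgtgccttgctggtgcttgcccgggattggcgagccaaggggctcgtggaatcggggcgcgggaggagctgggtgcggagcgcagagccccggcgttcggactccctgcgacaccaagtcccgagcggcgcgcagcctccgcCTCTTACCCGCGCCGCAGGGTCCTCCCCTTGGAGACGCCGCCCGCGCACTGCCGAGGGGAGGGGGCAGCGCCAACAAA
Col4a2: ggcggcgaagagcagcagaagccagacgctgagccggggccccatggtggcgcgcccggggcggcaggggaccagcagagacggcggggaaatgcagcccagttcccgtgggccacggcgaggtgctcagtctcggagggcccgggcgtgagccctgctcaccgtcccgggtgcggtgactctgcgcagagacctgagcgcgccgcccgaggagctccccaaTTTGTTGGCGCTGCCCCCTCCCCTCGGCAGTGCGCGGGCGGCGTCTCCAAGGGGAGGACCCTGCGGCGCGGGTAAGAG

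The windows of Col4a5 (chrX:141475169-141475468, plus strand) and Col4a6 (chrX:141474027-141474326, minus strand) share no base, and their annotated starts lie 1343 bases apart. The Col4a4 window is at chr1:82586800-82587099 on the minus strand, and that of Col1a2 at chr6:4505368-4505667 on the plus strand. In these windows capitals mark matches on either strand to any of 3 motifs, which share no letters of a window with each other here. One is TATAAA, the core of the element that positions the start of transcription in some promoters. Another is CCAAT, which the factor NF-Y binds. The last is GGGCGG, a core sequence that Sp1 family factors bind.
Col4a5: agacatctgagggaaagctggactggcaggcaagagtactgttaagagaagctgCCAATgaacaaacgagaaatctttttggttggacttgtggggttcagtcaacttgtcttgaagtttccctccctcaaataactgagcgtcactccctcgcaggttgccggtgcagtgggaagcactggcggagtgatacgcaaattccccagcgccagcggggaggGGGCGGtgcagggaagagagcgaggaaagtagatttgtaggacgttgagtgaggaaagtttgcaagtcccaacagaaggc
Col4a6: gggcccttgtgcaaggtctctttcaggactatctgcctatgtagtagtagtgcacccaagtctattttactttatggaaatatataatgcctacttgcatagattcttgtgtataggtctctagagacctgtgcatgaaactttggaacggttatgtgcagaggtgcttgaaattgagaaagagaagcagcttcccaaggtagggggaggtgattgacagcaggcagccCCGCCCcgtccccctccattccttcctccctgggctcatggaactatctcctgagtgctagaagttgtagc
Col4a4: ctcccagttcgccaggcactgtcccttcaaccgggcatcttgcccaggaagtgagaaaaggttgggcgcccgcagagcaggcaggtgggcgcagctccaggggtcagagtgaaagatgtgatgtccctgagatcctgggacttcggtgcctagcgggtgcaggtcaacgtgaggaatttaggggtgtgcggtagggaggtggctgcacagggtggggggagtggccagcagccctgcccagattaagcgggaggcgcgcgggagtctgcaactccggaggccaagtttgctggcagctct
Col1a2: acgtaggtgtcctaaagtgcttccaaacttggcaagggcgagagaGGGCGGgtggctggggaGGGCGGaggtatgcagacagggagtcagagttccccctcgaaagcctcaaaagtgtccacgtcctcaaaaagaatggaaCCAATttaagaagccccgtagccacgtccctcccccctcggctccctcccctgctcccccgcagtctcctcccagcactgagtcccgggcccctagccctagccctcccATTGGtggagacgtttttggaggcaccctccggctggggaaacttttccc

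In these printed windows Col1a2 holds 2 CCAAT and 2 GGGCGG matches, Col4a5 holds 1 of each, Col4a6 holds 1 GGGCGG match and Col4a4 holds none of the 3 motifs. Col4a1 holds 1 CCAAT and 1 GGGCGG match, and Col4a2 holds 1 CCAAT and 3 GGGCGG matches. These are not marked, since capitals in those windows show shared bases. Over all collagen windows, GGGCGG was present in 22 of 36 (61.1%), beside 35.7% of the 32851 windows of the RefSeq table. It was present in 20 of 28 windows of genes above background and in 2 of 8 windows of genes not above it. Median GC content was 60.7% and 55.3% in these groups. The same split was not made for all genes, so it is not read as a trait of collagen genes. Windows that overlap, such as those of Col4a1 and Col4a2, were counted separately. CCAAT was present in 13 of 36 (36.1%) beside 37.4%, and TATAAA in 5 of 36 (13.9%) beside 13.6%. Median GC content was 59.8% in collagen windows and 52.7% in all windows, and its part in the GGGCGG counts was not tested. These matches describe the letters of the windows and were not tested as binding sites.

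Of the other network types, VIII was above background and X was not. Type VIII collagen forms lattices such as that beneath the corneal endothelium. Col8a1 had 4084, 3163, 2699 and 2023 units, at least 1.60 times the threshold, and Col8a2 had 5043, 5064, 5704 and 4950 units. Col10a1, the collagen of hypertrophic cartilage, had 60.2, 89.6, 91.0 and 60.1 units, at most 0.0817 times the threshold.

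Of the 9 FACIT genes, 6 were above background, including those of types XII and XIV, which sit on type I fibrils. Col12a1, for a collagen of ligament and other dense connective tissue, had 23716, 16795, 19591 and 19787 units, highest on array 1. Col14a1, for a related fibril-surface collagen, had 4195, 5083, 5352 and 3948 units, and Col16a1 averaged 6409 ± 994 units. Col22a1, for a collagen of the junction between muscle and tendon, averaged 5210 ± 867 units, and all 3 of its probe sets were above background. Skeletal muscle markers were present in the pool, as given above. Of 4 measured tendon and ligament markers, 2 were above background, beside 51.6% of all genes. They were Postn at 25388 ± 1524 units and Tnmd at 6850 ± 955 units. Mkx, at 797 ± 70.9 units, and Scx, at 603 ± 296 units, were not. The part of muscle and tendon in the Col22a1 signal was not tested.

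Type IX collagen coats the type II fibrils of cartilage, and its chains did not pass together. Col9a2 had 5646, 3826, 5010 and 4964 units, and Col9a3 had 10808, 8527, 9170 and 9752 units, so both were above the threshold on every array. Col9a1 had 1454, 1397, 1120 and 1246 units, which passed on arrays 1 and 2 and fell short on arrays 3 and 4 (limma adjusted p = 0.552). This places Col9a1 within 0.865 to 1.46 times the threshold, where the arrays do not decide the call.

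The remaining FACIT genes were not above background. Col19a1, a rare collagen of basement membrane zones, had 503, 764, 766 and 459 units on its highest probe set and passed on 0 arrays. Col20a1 had 1076, 370.4, 1321 and 321 units, passing on arrays 1 and 3 only, and none of its 4 probe sets passed on all arrays. The spread of Col20a1 over the arrays, an SD of 1.04 on the log2 scale, was wider than the median of 0.62 for all genes not above background.

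Type VI collagen forms beaded microfibrils around cells in most connective tissues, and its classical chains were all high. Col6a1 had 28253, 29201, 27073 and 29273 units, Col6a2 had 37390, 42286, 38243 and 45994 units, and Col6a3 had 20454, 23363, 22293 and 27070 units. Col6a1 had the smallest spread of all collagen genes above background (SD 0.05 on the log2 scale). The later-found chains that can take the place of alpha 3 were not above background, with Col6a4 at 487, 242, 402 and 198 units and Col6a5 at 222, 454, 209.9 and 32.3 units.

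The collagens that fasten epithelium to connective tissue were above background. Col17a1, a transmembrane collagen of hemidesmosomes whose loss impairs enamel in mice and people, had 18944, 19153, 17649 and 25488 units and was highest on array 4. Col7a1, for the anchoring fibrils below the basement membrane, had 12009, 10088, 9948 and 9965 units and was highest on array 1. Both are expressed by oral as well as dental epithelium, and the part of oral tissue in these signals was not tested. Col18a1 and Col15a1, basement membrane collagens that carry glycosaminoglycan chains, averaged 11067 ± 851 and 3734 ± 523 units.

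The transmembrane and remaining genes reached the threshold with different margins. Col23a1, a transmembrane collagen, averaged 8979 ± 1216 units and passed with all 3 of its probe sets. Col13a1, a transmembrane collagen that matures the neuromuscular junction, had 1626, 1429, 1642 and 1647 units, only 1.27 to 1.63 times the threshold (limma adjusted p = 0.0288). Col25a1, a transmembrane collagen needed for motor axons to enter muscle in mice, had 2996, 1946, 1776 and 1778 units (limma adjusted p = 0.000916). Col26a1 had 4122, 3515, 3316 and 3208 units, at least 2.53 times the threshold. Of the 34 genes above background, Col4a5, Col4a6, Col8a1, Col13a1 and Col25a1 stood at less than 2 times the threshold on their lowest array.

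Not every collagen type with several measured chains had all of them above background. Of 7 types with at least 2 measured chains, types I, V, VIII and XI had every chain above background, and types IV, VI and IX had 4 of 6, 3 of 5 and 2 of 3. Of 19 types with 1 measured chain, 16 were above background, beside 81.0% of the collagen genes and 51.6% of all genes. These counts cover measured chains only, and Col6a6 was not measured. They were not tested against what the share of single genes would give.

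Chains encoded next to each other had the same call. Where neighbouring protein-coding genes of the reference table (GRCm38.p6) were both collagen genes on the array, 7 of 7 pairs had the same call, beside 55.6% of 14183 neighbouring pairs of all measured genes. Both members were above background for Col3a1 with Col5a2, Col4a1 with Col4a2, Col4a5 with Col4a6 and Col6a1 with Col6a2. Neither was for Col4a3 with Col4a4, Col6a4 with Col6a5 and Col9a1 with Col19a1. The pairs were not tested, and same calls are commoner among collagen genes, of which 81.0% were above background, than among all genes, of which 51.6% were. Calls differed within the pair of Col4a5 and Col4a6 by the median of a gene's probe sets and when every probe set had to pass, since Col4a6 lost its call, and within the pair of Col9a1 and Col19a1 at the 75th percentile, since Col9a1 gained one.

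Probe sets of 1 gene did not always give 1 call. Of 27 collagen genes with at least 2 probe sets, 12 were above background with every probe set, 6 with none, and 9 (33.3%) with some, beside 48.2% with some among all genes that have at least 2 probe sets. Genes with several probe sets have more chances to pass. The share above background was 77.8% for these 27 collagen genes beside 68.4% of all such genes, and 86.7% for the 15 collagen genes with 1 probe set, beside 35.2% of all such genes. At the level of probe sets, 54 of 82 (65.9%) were above background, beside 42.5% of all probe sets that name 1 gene.

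The differences within a gene could be large. Of 3 probe sets for Col1a2, the second averaged 161618 ± 25800 units, and the third averaged 406 ± 82.7 units and passed on 0 arrays. A second Col5a3 probe set averaged 58.8 ± 58.5 units, and of 4 Col12a1 probe sets, 2 averaged 147 ± 134 and 227 ± 60.1 units. The other genes with differing calls were Col4a6, Col8a1, Col9a3, Col14a1, Col25a1 and Col26a1. No position along the transcript was used for a probe set, and the low probe sets were not assigned to transcript forms.

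**Figure D3:**
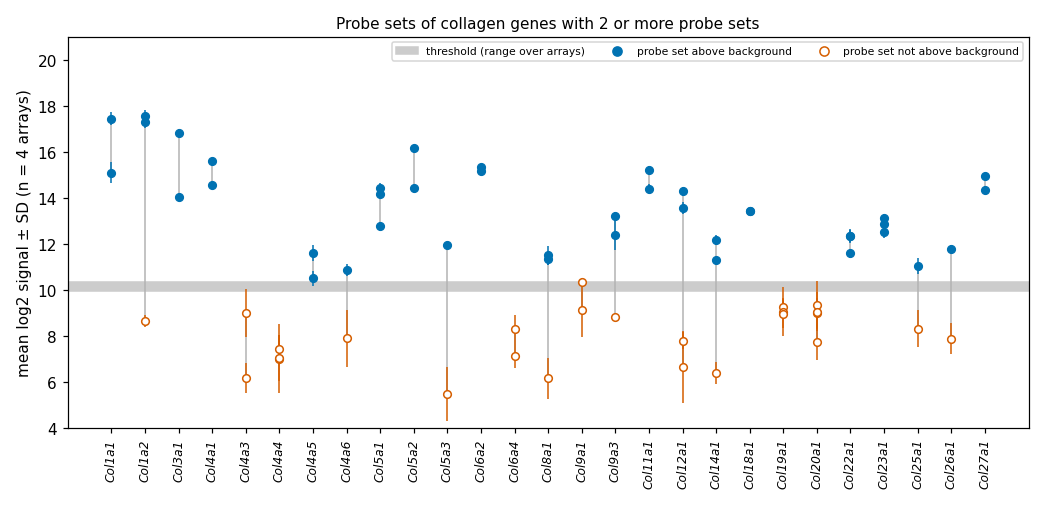
Mean log2 signal ± SD (vertical axis, n = 4 arrays) of every probe set of the 27 collagen genes with at least 2 probe sets, filled where above background on all 4 arrays and open where not, with the threshold range in grey. In 9 genes, among them Col1a2 and Col5a3, filled and open points occur together.

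The arrays ranked the collagen genes alike. Pearson's r of log2 signals across the 34 genes above background lay between 0.987 and 0.994 for the 6 array pairs, which is a description across genes that share 1 RNA pool. The median SD of the log2 signal was 0.17 for collagen genes above background, beside 0.16 for all genes above background, and 0.59 for collagen genes not above it, beside 0.62. The number of collagen genes over the threshold of a single array was 37, 36, 35 and 34 on arrays 1 to 4. The same count was not made for all genes, so the fall is not read as a trait of collagen genes.

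The brightest collagen genes were higher on array 4. Of 15 collagen genes with a mean log2 signal of at least 14, 13 were higher on array 4 than the mean of the other arrays, with a median difference of 0.25 on the log2 scale, beside 74.8% of the 1200 genes this bright, with a median difference of 0.11. After quantile normalisation, which gives every array the same distribution of signals, 10 of the 15 were higher on array 4, beside 57.0% of the 1200 genes. The median difference was then 0.12 for these collagen genes beside 0.03. Differences between arrays in these genes are technical, since all arrays carry RNA of the same pool.

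**Figure D4:**
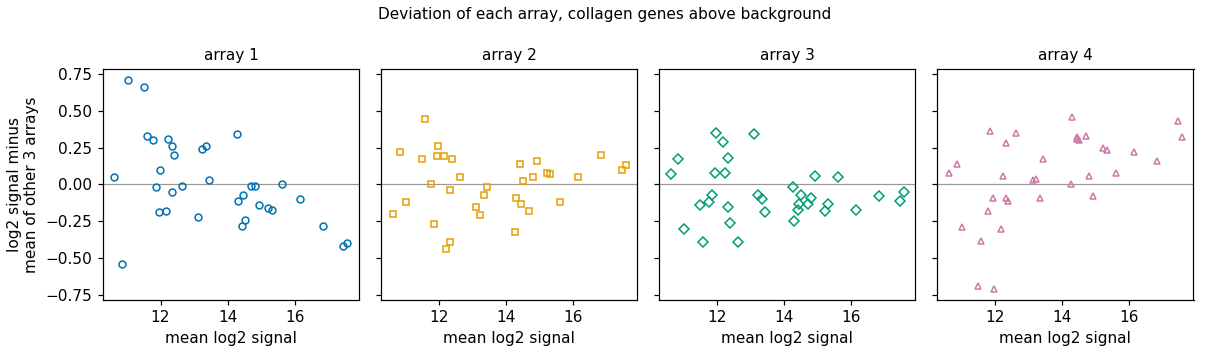
Log2 signal on each array minus the mean of the other 3 arrays (vertical axis) against the mean log2 signal (horizontal axis) for the 34 collagen genes above background. At a mean of 14 or more, 13 of 15 genes lie above 0 on array 4.

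Genes that act on collagen were set beside the chains. Of 24 measured genes for the modification, folding, trafficking, cleavage and crosslinking of collagen, 21 (87.5%) were above background, beside 51.6% of all genes. P4hb, a subunit of the prolyl hydroxylase that stabilises the helix, averaged 93592 ± 5585 units, and Pcolce, an enhancer of procollagen cleavage, averaged 84913 ± 1935 units. Colgalt2, a collagen galactosyltransferase, and P4ha3, a catalytic subunit of prolyl hydroxylase, averaged 666 ± 279.9 and 463 ± 56.5 units and were not above background. Of 9 measured collagen receptor genes, 6 (66.7%) were above background, a share nearer to the 51.6% of all genes. They included Itgb1, the shared integrin beta chain, at 24986 ± 2197 units and Mrc2, an endocytic receptor for collagen, at 14985 ± 2132 units. Gp6, the collagen receptor of platelets, averaged 71.0 ± 38.0 units and Itga2, an integrin alpha chain, 1512 ± 343 units, which passed on 3 arrays.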

How the data were processed

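Pooled molar tooth RNA was measured on 4 arrays, treated as 1 group with replicate numbers from the sample titles. The authors deposited 1 linear signal intensity per probe set and array, made with MAS5 per the submitters' processing notes. No source used here gives its settings or its detection calls. Leaving out 2% of probe sets at each end, every array averaged 2500, so intensities had been scaled to 1 target. Because MAS5 subtracts a mismatch signal, dim values are noisy.

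Genes were named from the platform annotation, and all 42 collagen symbols matched the reference gene table. The probe set of highest mean log2 signal gave a gene's value, and a gene counted as above background if any probe set passed on all arrays. The intensities were tested, as an alternative, with limma 3.58.1 (R 4.3.3, trended variance, one-sided, adjusted p under 0.05). Other work used Python 3.11.15. Other alternatives are given at the end. Per-array values are given for types I to XII and XVII and for genes whose call differed between arrays or probe sets, with Col13a1, Col19a1 and Col27a1 added after their values were seen. Other lists name at most 4 genes, the 2 highest above background and the first 2 by alphabet not above it. Members, classes and lists were chosen with earlier results of these data known. Protein features of the chains were planned and are not analysed here. The p-values measure technical spread only, and precision is limited by the number of arrays.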

Additional observations from a re-analysis of the deposited data

Results flagged for a closer look

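In 5 of 48 sets of 4 array values, 1 array lay apart from the other 3 by a gap test, where chance gives about 1 in 20 (2.4 of 48). On the log2 scale Col4a2 was 14.68 on array 4, with the others at 14.34 to 14.39. Col4a6 was 10.46 on array 1, with the others at 10.97 to 11.03, and Col7a1 was 13.55 on array 1, with the others at 13.28 to 13.30. Col8a2 was 12.48 on array 3, with the others at 12.27 to 12.31, and Col13a1 was 10.48 on array 2, with the others at 10.67 to 10.69. The array that lay apart was array 1 in 2 sets and arrays 2, 3 and 4 in 1 set each. All 5 genes were above background on each array.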

How the results depend on the processing

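Of 42 collagen genes, 31 kept their call under all 13 alternatives in which they were measured. The count above background was 33 (78.6%, beside 48.2% of all genes) at the 99th percentile of background signals, where Col13a1 lost its call, and 35 (83.3%, beside 65.3% of all genes) with the 75th, where Col9a1 gained one. It was 32 by the median of a gene's probe sets, without Col4a6 and Col25a1 (beside 42.7% of all genes). It was 29 of 38 (beside 46.9%) without probe sets whose suffix (_s_at, _x_at or _a_at) marks sequence shared between transcripts of 1 or several genes. There Col26a1 lost its call and the other 4 genes were not measured. When every probe set of a gene had to pass, it was 25, against 27.8% of all genes, because 9 genes have a probe set that is not above background. The count was then 9 of 11 for fibrillar genes, without Col1a2 and Col5a3. It was 4 of 9 for network genes, 3 of 9 instead of 6 for FACIT genes and 9 of 13 for the others. Counts stayed at 34 with at least 3 of 4 arrays (beside 55.9% of all genes), limma (50.9%), quantile normalisation (51.6%) and the highest probe set alone (51.5%). Quantile normalisation keeps the order of signals on an array, and the threshold is a percentile on the same array. It could therefore hardly change a call. Counts also stayed at 34 without array 1, 2, 3 or 4, beside 51.8%, 52.0%, 52.8% and 54.1% of all genes. Leaving out an array, or asking for at least 3 of 4, can only add calls. No gene could lose its call under these alternatives. The median log2 signal ranged from 12.35 to 12.42 when an array was left out and from 12.33 to 12.37 under the other alternatives. No paired analysis was possible because the arrays form 1 group. Signal near background limits the calls of Col9a1, Col13a1, Col25a1 and Col4a6.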
